A study of Mus musculus with 2 samples.

Results

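The BCL2 family decides at the outer membrane of the mitochondrion whether a cell enters apoptosis. Bax and Bak1, the effectors, can form pores in that membrane, which lets cytochrome c out and starts the caspase cascade. Antiapoptotic members such as Bcl2, Bcl2l1 and Mcl1 hold the effectors in check, and BH3-only members such as Bid, Bbc3, Pmaip1, Bcl2l11 and Bad act as stress sensors that bind the antiapoptotic proteins, the effectors, or both. Much of this control runs through protein binding, cleavage and phosphorylation, so RNA levels describe only the supply of each member.

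The RNA of 10 members was examined, 3 antiapoptotic, 2 effectors and 5 BH3-only, which are the rows of both libraries that carry these gene names among 26082 genes listed. The rule that chose them uses gene names and protein class, not measured values, although earlier results of these data were known. Fibro-adipogenic progenitors (FAPs) are mesenchymal cells of skeletal muscle that support regeneration and can turn into adipocytes. Primary mouse FAPs of WT genotype received plasmids for TGFBR3 overexpression (TGFBR3 OE) or, as control, the vector, to ask what TGFBR3 changes in their RNA, and both cultures were labelled as under adipogenic differentiation, for which DMEM with 20% FBS, 10 μg/ml insulin, 0.25 μM dexamethasone and 0.5 mM IBMX was used. The methods also name a maintenance medium with insulin but without dexamethasone or IBMX. They do not say which medium the sequenced cells were in when collected. Each condition has 1 library, and how many mice or cultures a library holds is not given in the sources used here. The C57BL/6 mice bought for the study were 6 to 8 weeks old, and their link to these libraries is not stated. Differences between the libraries are therefore values without replicates, and p-values are not printed.

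The deposited counts summed to 62321027 in the TGFBR3-labelled library and 83779203 in the control-labelled library. Tgfbr3 itself stood at FPKM 36.9 and 35.1 in these libraries (log2 ratio 0.07, 95% interval 0.04 to 0.10), so it was close to equal, and the names TGFBR3-labelled and control-labelled state what the labels say and nothing more. FPKM, read counts scaled by gene length and library total, is comparable between genes. Libraries were compared by the log2 ratio of (FPKM + 1), TGFBR3-labelled over control-labelled, which understates the change of genes near or under FPKM 1; the plain ratio of FPKM is given where this matters. The intervals beside ratios are exact (Clopper-Pearson, 95%), come from the counts of the gene, and cover counting error only. The median gene lay at 0.13 on this scale (10626 genes with FPKM 1 or more in each library), and 63.1% of the 11213 genes that averaged FPKM 1 or more, called the expressed genes, lay above 0. Of the cell markers, Pdgfra had FPKM 30.5 and 32.6 and Ly6a 1013 and 706, as FAPs express, while Lum was near absent (45 and 8 counts).

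The largest differences between the members lay among the BH3-only genes. By the plain ratio of FPKM, Pmaip1 and Bcl2l11 were 2.03-fold and 2.44-fold higher in the TGFBR3-labelled library. Bid and the effector Bak1 were higher by a smaller margin by this ratio, and Bax, Bbc3 and Bad were lower. No member reached 2-fold by the ratio of (FPKM + 1), or by the plain ratio with the GC trend removed. On the (FPKM + 1) scale the antiapoptotic members differed least, an order that did not hold with the GC trend removed or with counts scaled by TMM. Stretches of DNA ahead of 3 members are shown because they hold letters of factors known to act on the family. Bcl2l11 and Bbc3, which differed in opposite directions, are the members with the forkhead letters GTAAACA (either strand) within 250 bases before a RefSeq start. Bax has the only match to the p53 half-site, a decamer (RRRCWWGYYY), in the windows searched, which include none of Pmaip1. The matched letters are in capitals, and each stretch is printed 5′ to 3′ on the gene's strand from the RefSeq promoter windows of GRCm38.p6 (mm10).

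Bcl2l11 (chr2:128125801-128125827, plus strand): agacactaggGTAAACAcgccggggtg
Bbc3 (chr7:16310084-16310110, plus strand): ctggcgggttTGTTTACaaacaatggg
Bax (chr7:45467080-45467109, minus strand): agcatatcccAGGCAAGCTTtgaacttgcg

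The matches begin at −227, −167 and −201 from the respective start. The table held 15 windows of 300 bases, which run from 250 bases before to 50 after a start, for 9 of the members. Forkhead letters occurred in 2 of these 15 windows and in 3.65% of all 32851 windows, and the p53 half-site in 1 of 15 and in 8.36% of all. The interferon-response letters TTCNNNGAA and GAAANNGAA (either strand) occurred in 0 of the 15 windows and in 8.30% and 8.56% of all. The letters TGATGNAAT, a site known for CHOP and ATF4, were in 0 of the 15 and in 0.965% of all. GGGCGG was in 10 of the 15 and in 35.7% of all, CCAAT in 4 and in 37.4%, and TATAAA in 0 and in 13.6%. The GC content of the 15 windows ran from 49.3% to 78%, against a median of 52.7% over all windows. Some members have several windows, and 2 of those of Bbc3 overlap, so the 15 are not independent. The 3 printed matches overlap no match to another of the searched motifs. A match does not show binding, and the start used in FAPs was not measured.

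Gene positions below are those of GENCODE release M21 on mm10. Among the antiapoptotic members, Mcl1 (ENSMUSG00000038612, chromosome 3, 95658788 to 95663176, plus strand), a short-lived inhibitor of Bak1 and of several BH3-only proteins, was the most abundant. Its FPKM was 48.3 in the TGFBR3-labelled library and 47.7 in the control-labelled library, from 11192 and 15060 counts. The log2 ratio of (FPKM + 1) was 0.02 (95% interval −0.02 to 0.05), so the interval held 0 and lay below the median gene. Bcl2l1 (ENSMUSG00000007659, chromosome 2, 152780668 to 152831728, minus strand), which encodes BCL-XL, had FPKM 36.8 and 32.2 from 11443 and 13660 counts. Its log2 ratio was 0.18 (95% interval 0.15 to 0.22), close to the shift of the median gene. Bcl2 (ENSMUSG00000057329, chromosome 1, 106538178 to 106714274, minus strand), the founding member of the family, was scarce, with FPKM 0.28 and 0.24 from 176 and 206 counts. Its log2 ratio was 0.05 (95% interval −0.02 to 0.11), and the plain log2 ratio of FPKM was 0.22 (95% interval −0.08 to 0.52). In both libraries Bcl2l1 therefore exceeded Bcl2 by over 100-fold in FPKM, with ratios of 131 and 134. The direction of all 3 depended on the scaling of the libraries. With counts scaled by edgeR's TMM factors or DESeq2's size factors, Mcl1 was at −0.20 and −0.24, Bcl2l1 at −0.03 and −0.06, and Bcl2 at −0.0030 and −0.04 on the plain log2 scale.

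**Figure D1:**
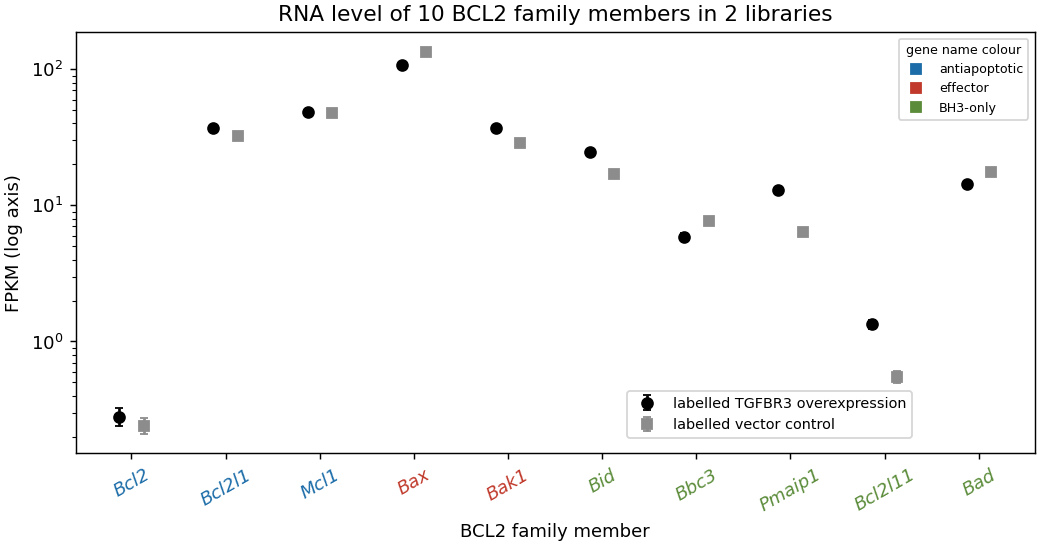
FPKM (log axis) of the 10 members in the library labelled TGFBR3 overexpression (black circles) and in the library labelled vector control (grey squares), with exact 95% Poisson intervals of the counts, which are often smaller than the symbols. Gene names are coloured by class; Bax is highest at 107 and 134 and Bcl2 lowest at 0.28 and 0.24, and the wide gap between the symbols for Pmaip1 and Bcl2l11 is the 2-fold difference.

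The effectors differed in opposite directions. Bax (ENSMUSG00000003873, chromosome 7, 45461697 to 45466898, minus strand) was the most abundant member, with FPKM 107 in the TGFBR3-labelled library and 134 in the control-labelled library, from 11429 and 19458 counts. Its log2 ratio of (FPKM + 1) was −0.32 (95% interval −0.35 to −0.29), and 86.2% of the expressed genes had a higher ratio. Bak1 (ENSMUSG00000057789, chromosome 17, 27019810 to 27029009, minus strand), which sits in the outer mitochondrial membrane also in healthy cells, had FPKM 37.3 and 28.95 from 6089 and 6439 counts. The log2 ratio of Bak1 was 0.35 (95% interval 0.30 to 0.40), and 29.1% of those genes had a higher ratio. The intervals of the effectors do not overlap, but they cover counting error only. How often this holds for other pairs of genes was not computed. The FPKM of Bax over that of Bak1 was 2.87 in the TGFBR3-labelled library and 4.62 in the control-labelled library. In the annotation, 12.2% of the exon bases of Bax are shared with Gm45808 on the same strand, and 18.2% of those of Bak1 lie opposite exons of Ggnbp1, with 7.35% opposite a second annotated entry of that name.

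Of the BH3-only members, Pmaip1 showed the largest log2 ratio of (FPKM + 1). Pmaip1 encodes NOXA, which binds mainly MCL1 and is known as a p53 target, and lies on chromosome 18 (ENSMUSG00000024521). Its FPKM was 12.9 in the TGFBR3-labelled library and 6.36 in the control-labelled library, from 2389 and 1605 counts. The log2 ratio was 0.92 (95% interval 0.83 to 0.998), short of 2-fold, and 3.96% of the expressed genes had a higher one. By the plain ratio of FPKM Pmaip1 was 2.03-fold higher (log2 1.02, 95% interval 0.93 to 1.11). The TGFBR3-labelled library thus held more counts of Pmaip1 although it is the shallower one, which among the members was also so for Bid and Bcl2l11.

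Bcl2l11 (ENSMUSG00000027381, chromosome 2, 128126038 to 128162547, plus strand) encodes BIM, which binds all antiapoptotic members and is known to respond to growth factor withdrawal and forkhead factors. It was low, with FPKM 1.34 and 0.55 from 733 and 411 counts. Its log2 ratio of (FPKM + 1) was 0.59 (95% interval 0.52 to 0.67), and the plain ratio was 2.44-fold (log2 1.28, 95% interval 1.11 to 1.46). The added 1 weighs most on this gene and on Bcl2, the 2 members with a mean FPKM under 1.

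Bid (ENSMUSG00000004446, chromosome 6, 120891930 to 120916853, minus strand), which caspase-8 cleaves to link death receptors to the mitochondrion, had FPKM 24.6 in the TGFBR3-labelled library and 17.1 in the control-labelled library, from 5935 and 5607 counts. Its log2 ratio was 0.50 (95% interval 0.45 to 0.55). Of its exon bases, 17.7% lie opposite exons of Bcl2l13, another member of the wider family, which had FPKM 6.47 and 5.24. The libraries mark strand according to the labels, but whether the counting used it is not stated.

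Bbc3 and Bad were lower in the TGFBR3-labelled library. Bbc3 (ENSMUSG00000002083, chromosome 7, 16308393 to 16318205, plus strand) encodes PUMA, like NOXA a known p53 target. It had FPKM 5.89 and 7.68 from 851 and 1510 counts (log2 ratio −0.33, 95% interval −0.44 to −0.23). Bad (ENSMUSG00000024959, chromosome 19, 6941861 to 6951899, plus strand), whose protein is silenced by phosphorylation in response to insulin and growth factors, had FPKM 14.5 and 17.75 from 2513 and 4200 counts (log2 ratio −0.28, 95% interval −0.35 to −0.21). The FPKM of Pmaip1 over that of Bbc3 was 2.19 in the TGFBR3-labelled library and 0.828 in the control-labelled library, so the order of these p53 targets was turned. Their exons have 42.2% and 63.7% GC, and over the expressed genes the ratio fell with GC content, as given below. The part of GC content in this contrast was not tested. Of the exon bases of Bad, 20.5% lie opposite exons of Gpr137.

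**Figure D2:**
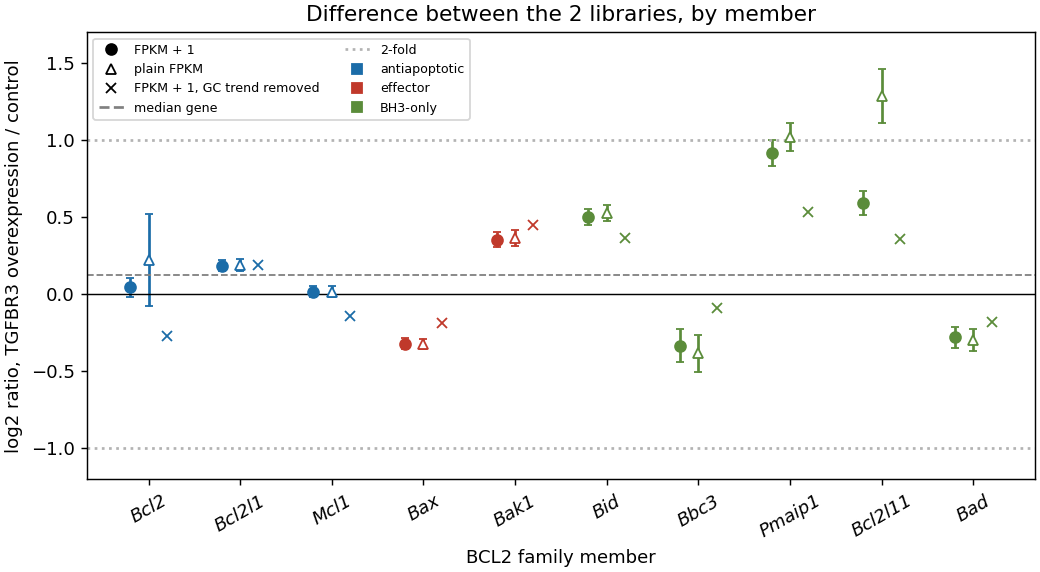
Log2 ratio of each member, TGFBR3-labelled over control-labelled library, for FPKM + 1 (filled circles), plain FPKM (open triangles) and FPKM + 1 with the GC trend removed (crosses), coloured by class. Bars are 95% Clopper-Pearson intervals of the counts, the dashed line is the median gene at 0.13 and the dotted lines are 2-fold; only Pmaip1 and Bcl2l11 reach 2-fold, and only by the plain ratio.

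Taken as a list, 0 of the 10 members were at least 2-fold higher and 0 at least 2-fold lower by the log2 ratio of (FPKM + 1). Across the expressed genes, 3.14% were higher and 1.03% lower by this rule, and 8 of the 10 members were among these genes. At 1.5-fold, 2 members were higher (Pmaip1 and Bcl2l11) and 0 lower, against 13.3% and 4.91% of the expressed genes. Bcl2l11 is not among the expressed genes, so on the same set 1 of 8 members was higher, near the background. By the plain ratio, over the 13936 genes with at least 100 counts in both libraries together, which hold all 10 members, Pmaip1 and Bcl2l11 were at least 2-fold higher and 0 lower, against 8.96% and 2.71%. The median log2 ratio of (FPKM + 1) was 0.12 over the members and 0.14 over the expressed genes. Of the 10 members 7 lay above 0, against 63.1% of the expressed genes, so as a list the family lay close to the background on this measure. The counting interval lay wholly above the median gene for 5 members (Bcl2l1, Bak1, Bid, Pmaip1 and Bcl2l11) and wholly below it for the other 5. The share of expressed genes with an interval that excludes the median gene was not computed. These counts therefore have no background and are not a result about the family. The added 1 narrows the interval of Bcl2, whose plain ratio of 0.22 (95% interval −0.08 to 0.52) spans the plain median of 0.20 over genes with at least 100 counts.

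By class, the FPKM of the 3 antiapoptotic members summed to 85.3 in the TGFBR3-labelled library and 80.2 in the control-labelled library, a log2 ratio of 0.09. The effectors summed to 144 and 163 (−0.17), with Bax lower and Bak1 higher. The BH3-only members summed to 59.2 and 49.4 (0.26), with Bid and Pmaip1 contributing the most to the difference. The effector sum was 1.69 times the antiapoptotic sum in the TGFBR3-labelled library and 2.03 times in the control-labelled library, while the BH3-only sum was 0.694 and 0.617 times the antiapoptotic sum. The lower effector sum reflects Bax, since the median log2 ratio of the 2 effectors was 0.02, and with the GC trend removed their sum was at −0.05. The sum over all 10 members was 289 and 292. Within it the share of Bax was 37.0% and 45.7%, that of Bid 8.53% and 5.85%, and that of Pmaip1 4.46% and 2.18%.

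The order of the levels was nearly the same in both libraries. Bax and Mcl1 led, and Bcl2l11 and Bcl2 closed it. In the TGFBR3-labelled library Bak1 (exact Poisson interval 36.3 to 38.2) and Bcl2l1 (36.1 to 37.4) did not differ beyond counting error, and in the control-labelled library Bad (17.2 to 18.3) and Bid (16.6 to 17.5) did not. All other neighbours had separate intervals. Pmaip1 and Bbc3 exchanged places 7 and 8, Bid and Bad places 5 and 6, and Bak1 and Bcl2l1 places 3 and 4, the last within counting error in the TGFBR3-labelled library.

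Base composition moved with these differences. Over 11207 genes the median log2 ratio of (FPKM + 1) fell from 0.45 in the lowest of 20 bins of exon GC content to −0.25 in the highest. Bax, Bad and Bbc3, the lower members, have exons of 58.7%, 57.5% and 63.7% GC, while Pmaip1, Bcl2l11 and Bid have 42.2%, 46.9% and 49.9%. Bak1 departs from this order, since it has 57.1% GC, in the same bin as Bad, and was higher. The antiapoptotic members depart from it too. Bcl2 (44.9% GC) and Mcl1 (48.7%) were at 0.05 and 0.02, below their bin medians of 0.32 and 0.16. Bcl2l1 (53.9%) was at 0.18, above its bin median of −0.0027. With the median of its bin subtracted, Pmaip1 was at 0.54, Bak1 at 0.45, Bid at 0.36 and Bcl2l11 at 0.36. Bax was then at −0.19, Bad at −0.18, Bbc3 at −0.09, Mcl1 at −0.14, Bcl2 at −0.27 and Bcl2l1 at 0.19. The plain ratio of Bcl2l11 with its trend removed was 0.98 and that of Pmaip1 0.50, so 0 members were then at 2-fold. Of the genes with a GC value, 7.42% exceeded Pmaip1 and 10.2% exceeded Bak1 after this step.

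**Figure D3:**
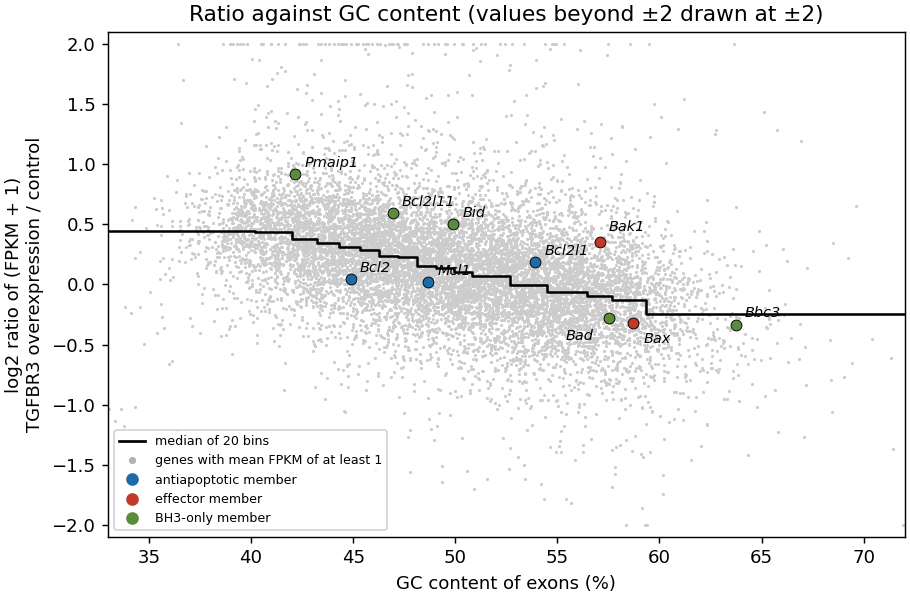
Log2 ratio of (FPKM + 1) against the GC content of the exons for the expressed genes (grey), the median of 20 GC bins (black line) and the 10 members (coloured by class). The line falls from 0.45 to −0.25; Pmaip1, Bcl2l11, Bid, Bcl2l1 and Bak1 lie above it and the other members below it, with Bak1 far above Bad and Bax at like GC content.

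The scaling between libraries also matters for directions. Counts scaled by TMM factors or DESeq2 size factors put genes 0.22 or 0.25 log2 units lower, at the median, than FPKM does. The share of higher genes among those 2-fold different was 75.2% by FPKM (352 higher, 116 lower), 51.0% with TMM, 46.6% with DESeq2 size factors, 59.4% when centred on the median gene and 64.6% with the GC trend removed. Over the main measure and 10 alternatives, Pmaip1 stayed above 0, from 0.50 to 1.06, as did Bcl2l11 (0.32 to 1.28), Bid (0.27 to 0.59) and Bak1 (0.11 to 0.48). Bax (−0.58 to −0.17), Bbc3 (−0.64 to −0.09) and Bad (−0.55 to −0.18) stayed below 0 in the same 11 settings. Bcl2, Bcl2l1 and Mcl1 took both signs. Several of these settings reuse the same FPKM values or shift all genes together, so they are not independent. The share of expressed genes that keep their sign over the settings was not computed. The kept signs therefore have no background and are not a result about the family.

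Of 15 other genes of the wider family, 12 were analysed here and 6 were among the expressed genes, of which 0 reached 2-fold. Bok, an effector related to Bax, was the lowest at FPKM 3.70 and 7.72 (log2 ratio −0.89, and −1.06 by the plain ratio). Bnip3, a mitochondrial receptor for autophagy that is induced by hypoxia, was the highest at FPKM 211 and 134 (0.65). Bcl2l2, which encodes the antiapoptotic BCL-W and is named after its values were seen, had FPKM 10.9 and 19.0 (−0.75). With the GC trend removed these values were −0.65 for Bok, 0.31 for Bnip3 and −0.82 for Bcl2l2. The median of the 6 was −0.09, and −0.17 with the GC trend removed.

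Downstream of the mitochondrion, 16 genes of the apoptosome, the caspases and their inhibitors (IAPs) were listed, and 15 were expressed. Of these, 8 had a ratio above 0 and 7 below, while 63.1% of all expressed genes lay above 0. The median was 0.21, against 0.14 over the expressed genes, and 0 were 2-fold changed. With the GC trend removed the median was −0.12, with 7 above 0 and 8 below. Endog, a mitochondrial nuclease, was the lowest at FPKM 5.78 and 9.72 (log2 ratio −0.66). In the death receptor arm, which reaches the BCL2 family through Bid, 8 genes were expressed. Of these, 6 were above 0, against 63.1% of all expressed genes, with a median of 0.45 and 0 at 2-fold. With the GC trend removed this median was 0.18, with 6 above 0 and 2 below. Casp8, which cleaves Bid, was the highest at 16.4 and 9.68 (0.70, and 0.47 with the GC trend removed), and Tnfrsf1a, a receptor of TNF, was the lowest at 94.6 and 115 (−0.28).

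Of 11 partners of the family at mitochondria and the endoplasmic reticulum, such as channels and co-chaperones, 9 were above 0, against 63.1% of the expressed genes. Their median was 0.17, against 0.14 over the expressed genes, and 0 were at 2-fold. With the GC trend removed the median of the 11 was 0.06, with 7 above 0 and 4 below. Before this step the partners ranged from Vdac1 (−0.06) to Vdac3 (0.48), which encode channels of the outer mitochondrial membrane. Genes for ubiquitin ligases, a deubiquitinase and 14-3-3 proteins that act on the members as proteins had a median of 0.37, and all 8 expressed were above 0, against 63.1% of the expressed genes. The highest was Marchf5, a mitochondrial ubiquitin ligase, at FPKM 50.4 and 33.9 (0.56), and the lowest was Btrc (0.11). With the GC trend removed the median of these 8 was 0.09, with 6 above 0 and 2 below.

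Of 16 genes for transcription factors that act on the family and for their regulators, 14 were expressed, 13 were above 0 and 2 were at least 2-fold higher, against 63.1% and 3.14% of the expressed genes. These were Ddit3, which encodes the stress factor CHOP, at FPKM 116 and 17.5 (log2 ratio 2.66), and Mdm2, the p53 ubiquitin ligase, at 75.6 and 29.9 (1.31, and 0.99 with the GC trend removed). The lowest was E2f1, at −0.13. The median of the 14 was 0.33, and 0.26 with the GC trend removed. Among the p53 targets named here, Mdm2, Pmaip1 and Cdkn1a were above 0, and Bax and Bbc3 were below it. Cdkn1a, a cell cycle inhibitor named after its values were seen, had FPKM 258 and 157 (0.71). These genes are not a full list of p53 targets, so their split does not describe p53 targets as a set.

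**Figure D4:**
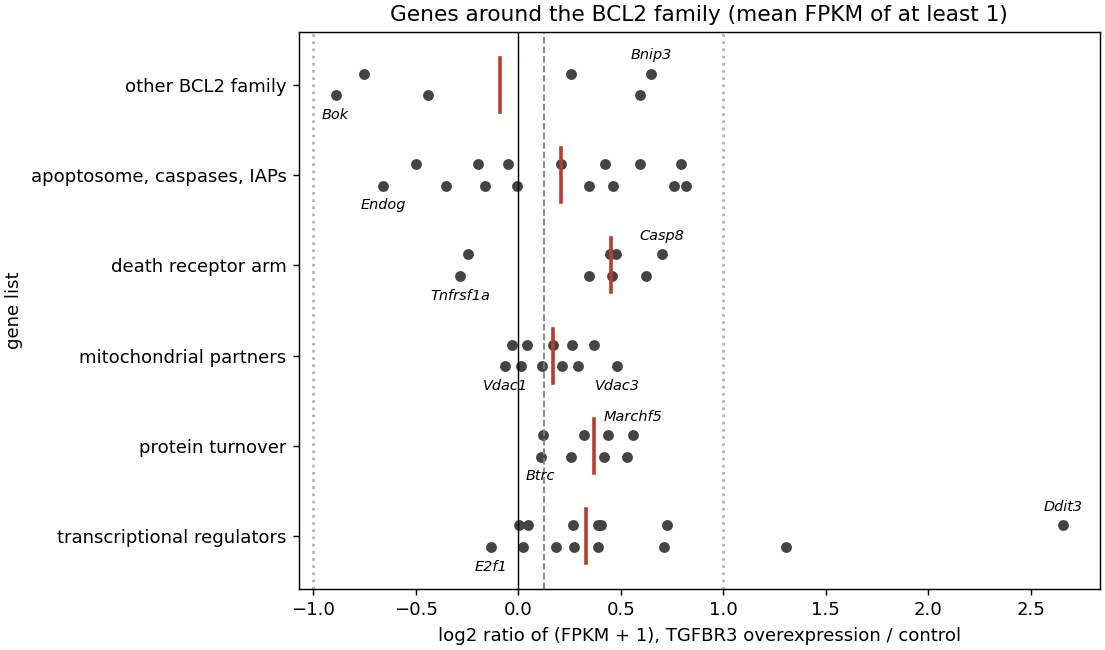
Log2 ratio of (FPKM + 1), TGFBR3-labelled over control-labelled library, for the genes of 6 lists around the BCL2 family that were expressed (1 point per gene, offset up and down for legibility; highest and lowest named, in the apoptosome list the lowest only). Red bars are list medians, the dashed line is the median gene at 0.13 and the dotted lines are 2-fold; Ddit3 at 2.66 and the unnamed point at 1.31, Mdm2, are the only genes past 2-fold.

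The culture as a whole also differed. Of 8 adipocyte markers, 7 were expressed and 5 of these were below 0, against 36.7% of the expressed genes. At least 2-fold lower were 2 (Cfd at −1.29 and Adipoq at −1.07), against 1.03% of the expressed genes. Pparg, the main adipogenic transcription factor, was the highest at FPKM 2.19 and 1.61 (0.29), Lpl, also named after its values were seen, was at 0.16, and the summed FPKM of the 8 markers was 57.8 and 95.3. Of 8 FAP markers, 7 were expressed and 5 of these were below 0, against 36.7% of the expressed genes. Col3a1 was at −1.05 and Ly6a was highest at 0.52. In bulk RNA, fewer cells of a type and less RNA per cell cannot be told apart. Markers of other cell types were low. The 9 macrophage markers summed to FPKM 0.91 and 0.54, with 3 of them at 0 counts in both libraries, the 5 muscle cell markers to 1.65 and 1.30, the 6 endothelial markers to 2.40 and 2.03 (Kdr with 262 and 65 counts) and the 3 lymphocyte markers to 0.24 and 0.15. The part of the adipocyte and FAP genes in the members' differences was not tested.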

How the data were processed

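RNA of primary mouse FAPs was sequenced in 2 libraries, 1 per condition, as paired reads of 150 nt. According to the methods, STAR (alignment to mm10 after trimming) and FeatureCounts were used, while the submitters' processing notes list cutadapt 1.9, HISAT2 2.2.1, StringTie 2.1.6, DESeq2 and edgeR. Which tools made the files, the annotation release and the use of strand in counting are not given in the sources used here. Each deposited file holds a raw count per gene. The authors also deposited FPKM, scaled by gene length and a library total and rounded to 2 decimals. The scaling total acts on all genes of a library together.

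The members and gene lists were chosen with earlier results of these data known. Ratios used FPKM with a pseudocount of 1. Genes averaging FPKM 1 or more formed the background, and 2-fold was the threshold. Count models need replicates and none was fitted; edgeR 4.0.16 and DESeq2 1.42.0 gave scaling factors only. All members were named, as were, of each other list, the genes past 2-fold, the highest and the lowest. Exon length, GC content and overlaps came from GENCODE release M21 (mm10), which lacks 70 of the 26082 identifiers, and trends were medians in 20 bins. Reads are not independent molecules unless molecular identifiers are used, which is not stated. The intervals narrow with depth, from Bcl2 (176 and 206 counts) to Bax (11429 and 19458). The calculations were tested on simulated counts (Python 3.11.15, scipy 1.17.1). Alternatives were other pseudocounts, scalings, thresholds, filters and trend corrections. Bcl2a1a, Bcl2a1b, Hrk, Fasl, Myf5, Myod1, Pax7, Cd3e, Cd3g and Cd8a were not analysed here, and some further items are not reported here.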

Additional observations from a re-analysis of the deposited data

How the results depend on the processing

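The count of 0 members at 2-fold depended on the added 1, the scaling and the GC trend. It was 2 higher (Pmaip1 and Bcl2l11) with pseudocounts of 0.1 or 0.01, without a pseudocount, with FPKM rescaled to a common sum, at 1.5-fold, and by the plain ratio over genes with at least 100 counts, which was chosen after seeing the data. It was 1 (Bcl2l11) with counts scaled by TMM or by DESeq2 size factors, and 0 when centred, with the GC or length trend removed, or by the plain ratio with the GC trend removed, an alternative also chosen after seeing the data. No member was 2-fold lower in any setting tried. Over the 11213 expressed genes, 645 were higher and 192 lower with a pseudocount of 0.1, 728 and 203 with 0.01, and 739 and 207 without one. At 1.5-fold these counts were 1488 (13.3%) and 550 (4.91%). By the plain ratio over the 13936 genes with at least 100 counts they were 1249 (8.96%) and 377 (2.71%). Of the 11213 expressed genes, rescaling to a common sum gave 658 higher and 142 lower, and centring gave 268 and 183. TMM gave 422 and 406, and DESeq2 size factors gave 394 and 451. With the GC trend removed the counts were 239 and 131, and with the length trend removed 280 and 146. The log2 ratios of the antiapoptotic, effector and BH3-only sums were −0.0373, −0.30 and 0.13 when centred, 0.16, −0.10 and 0.33 after rescaling to a common sum, −0.13, −0.39 and 0.0390 with TMM, −0.16, −0.43 and 0.00688 with DESeq2 size factors, 0.00427, −0.0506 and 0.17 with the GC trend removed, and −0.0167, −0.12 and 0.20 with the length trend removed. The effector sum was below 0 and the BH3-only sum above 0 in all settings, while the antiapoptotic sum took both signs. Where a scaling moved a value, that follows from its construction. The cause of the trends was not tested. No paired analysis was possible because each condition has 1 library. Depth limits the values of Bcl2 most, whose plain interval spans no change.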
